A study of Mus musculus with 67 samples.

Results

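The 9 genes described here encode the signalling chains of the T-cell receptor complex, its coreceptor and the first kinases and adaptors that it engages: *Cd3d*, *Cd3e*, *Cd3g*, *Cd247*, *Cd4*, *Lck*, *Zap70*, *Lat* and *Lcp2*. All 9 were found, among 24530 gene features in the second experiment and 24421 gene symbols in the pilot experiment. RNA of sorted T cells was sequenced in 67 libraries, from the mouse hypothalamus throughout and, in a later second experiment, from the remaining brain (rest brain) too. The study asks how a calorie-rich diet acts on conventional and regulatory T cells (Tregs) of the hypothalamus. That experiment has 29 libraries of conventional T cells with an activated surface (Tconv) and 30 of Tregs; an earlier pilot experiment has 8, with 1 for each condition.

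In the second experiment, Tconv were gated as CD4+CD25-Foxp3GFP-CD44 hiCD62L low. For Tregs the gate taken here is CD25+Foxp3GFP+, as the paper describes its Tregs elsewhere, while the labels of these libraries read act or Tregs. The paper's flow cytometry leaves out cells with CD8a, CD11b, CD11c, CD14, F4/80 or B220. All mice carried the Foxp3GFP reporter allele (*Foxp3 tm2Tch*), which makes cells that express Foxp3, the transcription factor of Tregs, fluoresce green. They were Balb/c females or C57Bl/6J males, so that strain and sex cannot be told apart. They were fed standard diet (SD) or a high-fat high-sugar diet (HFHS diet, HFD in the labels of these libraries), and the labels give neither their age nor the duration of feeding. Cells of several mice were pooled for each library, and olfactory bulbs and cerebellum had been removed from the rest brain. Each strain and diet has 4 libraries of either cell type from the hypothalamus. From the rest brain, Tconv have 3 libraries of Balb/c mice on the HFHS diet, 3 of Balb/c mice on SD, 3 of HFHS-fed C57Bl/6J mice and 4 of C57Bl/6J mice on SD, and Tregs have 4, 2, 4 and 4. In the pilot experiment, CD4+CD44- naive T cells and CD4+CD25+Foxp3GFP+ Tregs came from 9 pooled female Foxp3GFP Balb/c mice for each diet after 16 weeks of HFHS diet or SD. The label of the naive cells is used here, while the paper gives their gate as CD4+CD25- with low to intermediate CD44. CD4+ T cells and CD25 hi Tregs came from 7 pooled females each of leptin-deficient *ob/ob* mice and wild-type Bl6 mice (WT), all from the hypothalamus.

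As background, the antigen-binding chains of the T-cell receptor cannot signal alone: they assemble with the CD3 gamma, delta and epsilon chains (*Cd3g*, *Cd3d*, *Cd3e*) and with the zeta chain (*Cd247*), whose cytoplasmic tails carry the signalling tyrosines. The coreceptor CD4 binds MHC class II and brings the kinase Lck, which phosphorylates these tails; the kinase Zap70 then docks there and phosphorylates the adaptors Lat and Lcp2, on which calcium and Ras signalling are assembled. Tregs use the same machinery, and signals through it are needed for their development and suppressive function.

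Levels in the second experiment are the deposited estimated counts, summed over the transcripts of a gene and scaled to CPM, the same total for each library, so that they compare libraries but not genes. Library totals ran from 13196689 to 20538309 counts in hypothalamic Tconv, from 11340063 to 28187008 in rest brain Tconv, from 1724149 to 38482277 in hypothalamic Tregs and from 8938477 to 24985589 in rest brain Tregs. A gene counted as detected with more than 3 counts. All 9 genes were detected in 16 of 16 hypothalamic Tconv, 13 of 13 rest brain Tconv and 14 of 14 rest brain Treg libraries, but in 11 of 16 hypothalamic Treg libraries. The hypothalamic Treg libraries also held the fewest detected genes, with a median of 4749 against 9913.5 in hypothalamic Tconv, 12368 in rest brain Tconv and 9120.5 in rest brain Tregs. The summed level of the 9 genes had a median of 9386 CPM over the 59 libraries, and 2 libraries lay below 0.5 times that median, both hypothalamic Tregs on SD. The Balb/c library 32_36 summed to 4231 CPM and had 0 counts of *Cd247* and *Zap70*, which allow up to 0.293 CPM of each. The C57Bl/6J library 11_15 summed to 206 CPM, so that it held little T-cell receptor RNA.

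The Treg label was checked with *Foxp3*, and with *Il2ra*, which encodes CD25. *Foxp3* was at 241 to 767 CPM in the 14 rest brain Treg libraries and at 0.0355 to 12.6 CPM in the 13 rest brain Tconv libraries, with no overlap. In the hypothalamus, *Foxp3* was at 0.0977, 206 and 862 CPM in the lowest, median and highest Treg library and at 0, 3.94 and 13.8 CPM in Tconv. There, 12 of 16 Treg libraries lay above the Tconv libraries, while 4 had less than 10 CPM of *Foxp3* and go against their label on this marker. These 4 were 32_36 (Balb/c, SD) with 0.0977 CPM, 43_47 (C57Bl/6J, SD) with 3.48 CPM, 06_10 (C57Bl/6J, HFHS diet) with 0.429 CPM and 11_15 (C57Bl/6J, SD) with 1.19 CPM. *Il2ra* was at 757 CPM in 43_47 and at 666 CPM in this 06_10, but 5 other libraries, all on SD, had no more of it than Tconv, which reached 79.2 CPM, and go against the CD25+ gate on this marker. They were the 4 Balb/c libraries, 06_10 (0 CPM), 42_46 (0 CPM), 32_36 (0.0977 CPM) and 37_41 (18.3 CPM), and the C57Bl/6J library 11_15 (0 CPM), although *Foxp3* was at 862 CPM in 06_10, 497 CPM in 42_46 and 390 CPM in 37_41. *P2ry12*, a gene of microglia, exceeded 100 CPM in 3 hypothalamic Treg libraries and 1 rest brain Tconv library: 4866 CPM in 32_36, 413 CPM in 11_15 and 308 CPM in 67_71 (C57Bl/6J, SD), and 265 CPM in the Tconv library 42_46 (Balb/c, SD). In the Treg library 11_15, the endothelial list described below summed to 5033 CPM and the monocyte and macrophage list to 2233 CPM. For hypothalamic Tregs, counts of calls are given below with and without the libraries low in *Foxp3* or high in *P2ry12*; those low in *Il2ra* were not left out as a group.

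For microglia only *P2ry12* is given, as above. Markers of other cells are given as the summed CPM of each list, as medians in the order hypothalamic Tconv, rest brain Tconv, hypothalamic Tregs, rest brain Tregs. Genes shared by T cells (8 genes, *Cd2* most abundant) summed to 2938, 3019, 3338 and 3441, and the Treg list (6 genes, *Tnfrsf18* most abundant) to 489, 595, 2712 and 3522. The Treg list did not overlap between the cell types in the rest brain, but in the hypothalamus it ran from 73.7 CPM in Tregs and up to 684 CPM in Tconv, and the shared list was at 33.4 CPM in the lowest Treg library there. The list for CD8 T cells and NK cells (6 genes, *Cd8b1* most abundant) summed to 277, 311, 0.144 and 21.5, although the paper's flow cytometry leaves out cells with CD8a. Monocyte and macrophage genes (9 genes) summed to 723, 930, 141 and 118, with *Ly6c2* most abundant in Tconv and *Ccr2* in Tregs. In hypothalamic Tconv 2 of these 9 genes exceeded 3 counts in any library and *Adgre1*, *Cd14* and *S100a9* were at 0 in each of the 16 libraries. Oligodendrocyte genes (6 genes, *Mbp*) summed to 87.3, 94.4, 90.8 and 93.6, and endothelial genes (6 genes) to 35.4, 25.1, 2.95 and 94.9, with *Cldn5* most abundant in hypothalamic Tregs and *Pecam1* elsewhere. The mean of *Cldn5* in the 16 hypothalamic Treg libraries, 138 CPM, rests mostly on 1 library with 2122 CPM. The lists for B cells, neurons, astrocytes and erythroid cells had medians under 20 CPM in each set, which single libraries exceeded widely. B-cell genes (5 of 6 in the file, *Cd79b*) summed to 0, 5.12, 0 and 19.3, neuronal genes (8 genes) to 0.104, 1.14, 0.0415 and 0.146, astrocyte genes (6 genes, *Slc1a2*) to 0.0657, 1.06, 0 and 0.0726, and erythroid genes (6 genes) to 0, 0.0543, 0 and 0.632. The most abundant neuronal gene was *Nefl* in hypothalamic Tconv, *Snap25* in hypothalamic Tregs and *Syt1* in the rest brain. The most abundant erythroid gene was *Hba-a1* in hypothalamic Tconv and rest brain Tregs, *Alas2* in rest brain Tconv and *Hba-a2* in hypothalamic Tregs. Of these 4 lists, sums over 100 CPM were found in 6 libraries of the second experiment. In hypothalamic Tregs, 43_47 had 444 CPM of B-cell and 1060 CPM of erythroid genes, 32_36 had 399 CPM of B-cell and 524 CPM of astrocyte genes, 11_15 had 463 CPM of astrocyte and 121 CPM of neuronal genes, and 67_71 had 106 CPM of neuronal genes. In the rest brain, the Balb/c SD libraries 42_46 had 133 CPM of B-cell genes in Tregs and just over 100 CPM of neuronal genes in Tconv, and they held the most oligodendrocyte RNA, 756 and 482 CPM. The part of these cells in the results that follow was not tested.

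The CD3 gamma and epsilon chains stood above the other 7 genes when mean levels were compared between genes on the length-corrected TPM scale, while the zeta chain *Cd247* stood below *Lck* and *Lat*. In hypothalamic Tconv, *Cd3g* was highest at 3374 TPM ± 371 (SD, n = 16), followed by *Cd3e* at 2277 ± 219. *Lck* at 1115 ± 171, *Lat* at 1073 ± 132 and *Cd3d* at 974 ± 188 came next and did not differ beyond their spread. *Lcp2* at 289 ± 54.6 and *Cd247* at 282 ± 39.1 formed a lower pair, and *Cd4* at 117 ± 82.2 and *Zap70* at 116 ± 36.2 the lowest. Rest brain Tregs kept *Cd3g* (3293 ± 571, n = 14) and *Cd3e* (2432 ± 439) on top, then *Cd3d* (1145 ± 208), *Lck* (978 ± 247) and *Lat* (861 ± 135). There, *Cd247* (284 ± 87.2) and *Lcp2* (263 ± 63.5) stood above *Zap70* (109 ± 50.5) and *Cd4* (84.5 ± 34.8). In rest brain Tconv, *Cd3g* at 3557 ± 207 (n = 13) exceeded *Cd3e* at 1719 ± 578 and *Cd3d* at 1102 ± 91.1, while *Lat* at 880 ± 192 and *Lck* at 671 ± 343 did not differ beyond their spread. *Cd247* at 257 ± 92.5, *Lcp2* at 196 ± 96.5, *Cd4* at 113 ± 64.6 and *Zap70* at 77.1 ± 46.7 each lay within the spread of the next. In hypothalamic Tregs, *Cd3g* at 3046 ± 1424 (n = 16) exceeded *Cd3e* at 1582 ± 703, and from *Cd3e* downward each gene lay within the spread of the next, through *Cd3d* at 1069 ± 605, *Lck* at 657 ± 418, *Lat* at 634 ± 411, *Lcp2* at 230 ± 188, *Cd247* at 222 ± 144 and *Cd4* at 79.7 ± 63.8 to *Zap70* at 57.7 ± 63.5. The CD3 gamma chain thus headed the order and *Cd4* and *Zap70* ended it in each of the 4 sets.

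**Figure D1:**
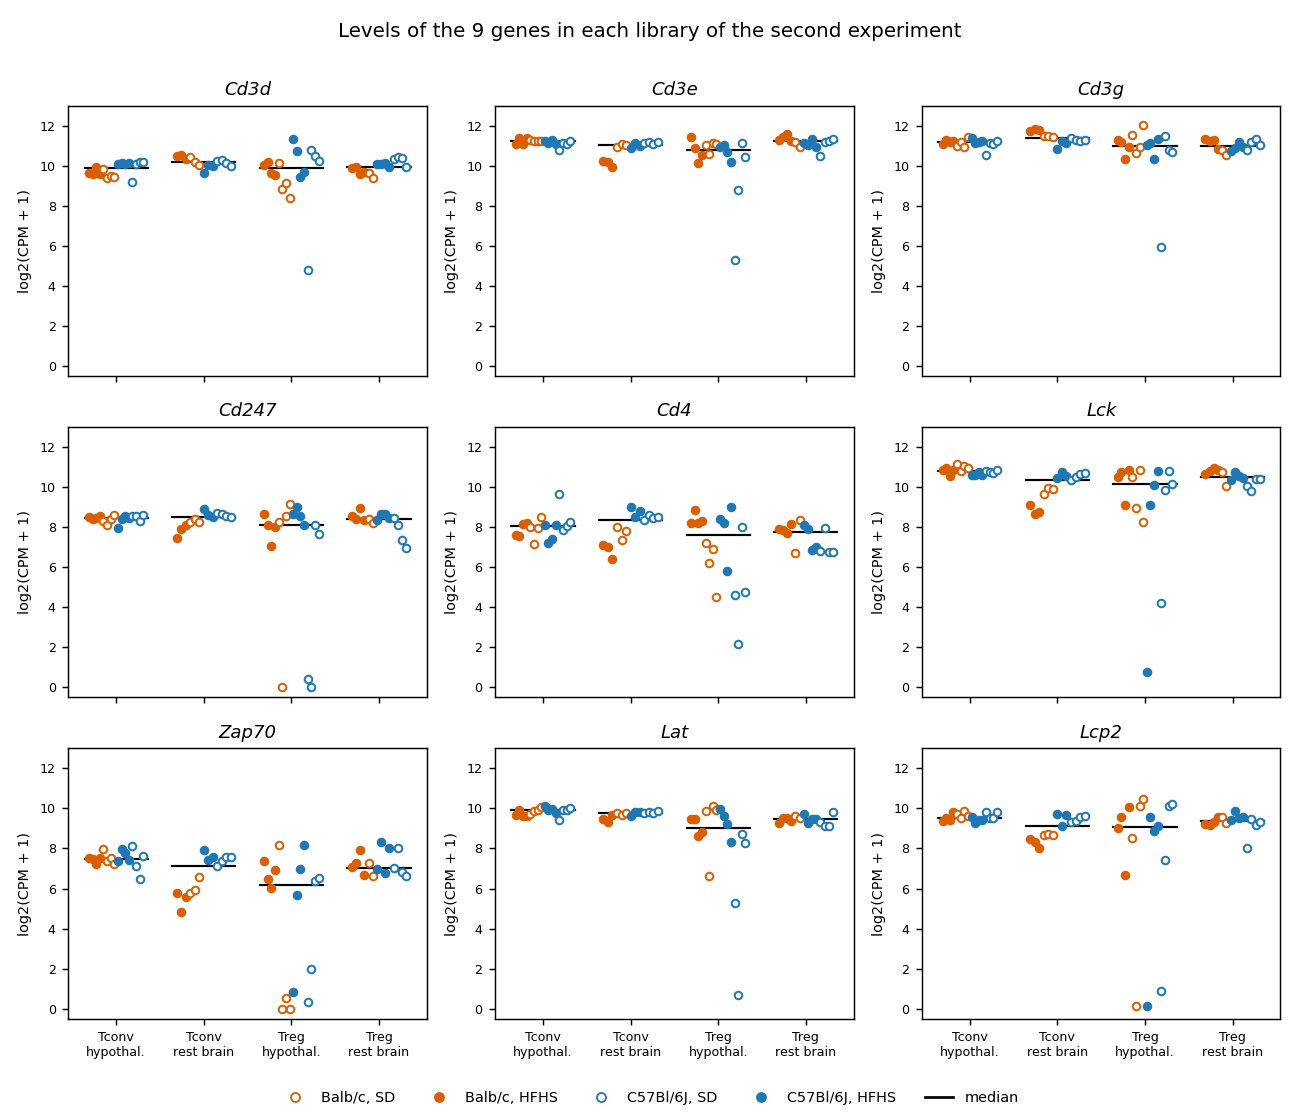
Level of each of the 9 genes, as log2(CPM + 1) on the vertical axis, in the 4 sets of the second experiment; each point is a library (orange Balb/c, blue C57Bl/6J, filled HFHS diet, open SD) and each line the median. Hypothalamic Tregs spread most widely, with *Zap70* from 0 to 293 CPM, against 88.5 to 277 CPM in hypothalamic Tconv.

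Whether Tregs and Tconv carry the receptor machinery in the same amounts was asked first in the rest brain, where all libraries matched their labels on *Foxp3*. Of the 9 genes, the CD3 gamma chain and the adaptor *Lat* were called lower in Tregs than in activated Tconv, and the other 7 did not pass the test. *Cd3g* was at 1509, 2060 and 2623 CPM in the lowest, median and highest of 14 Treg libraries and at 1829, 2746 and 3694 CPM in 13 Tconv libraries. *Lat* was at 550, 716 and 920 CPM in Tregs and at 646, 864 and 925 CPM in Tconv. The groups overlapped for both genes, but 14 of 14 Treg libraries lay below the Tconv median for *Cd3g* and 13 of 14 for *Lat*. The log2 fold change (Tregs over Tconv) was −0.51 (SE 0.11, adjusted p = 0.00218) for *Cd3g* and −0.36 (SE 0.10, adjusted p = 0.0106) for *Lat*, in the quasi-likelihood test of edgeR with p-values adjusted over all genes tested and a threshold of 0.05. Thus 2 of 9 were lower and 0 higher in Tregs, against 12% lower and 3.7% higher (15.7% together) of the 13956 genes tested, of which 3664 had an unadjusted p under 0.05. The median log2 fold change was −0.19 over the 9 genes and −0.35 over all genes tested, so that *Lat* lay at the median of all genes and was not lower relative to them, while *Cd3g* lay below it; whether 2 of 9 differs from the share of all genes was not tested. In bulk RNA, fewer cells of a type and less RNA in each cell cannot be told apart.

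The remaining chains and the coreceptor gave smaller or less certain differences in the rest brain. *Cd3d* was at 678 to 1415 CPM in Tregs and 813 to 1520 CPM in Tconv (log2 fold change −0.34, adjusted p = 0.11). *Cd3e* was at 1441 to 3054 CPM against 982 to 2355 CPM (0.24, adjusted p = 0.153), and *Cd247* at 126 to 505 CPM against 176 to 475 CPM (−0.19, adjusted p = 0.512). *Cd4*, at 105 to 327 CPM in Tregs and 84.9 to 514 CPM in Tconv, had a log2 fold change of −0.58 (adjusted p = 0.117). The kinases and the second adaptor had positive log2 fold changes without passing the test. *Lck* was at 912 to 2003 CPM against 408 to 1715 CPM (0.35, adjusted p = 0.186), *Zap70* at 97.3 to 322 CPM against 27.5 to 246 CPM (0.47, adjusted p = 0.236), and *Lcp2* at 258 to 927 CPM against 256 to 844 CPM (0.20, adjusted p = 0.417). Treg libraries lay below the Tconv median in 11 of 14 for *Cd3d*, 10 for *Cd247* and 13 for *Cd4*, and above it in 11 of 14 for *Cd3e*, 10 for *Lck* and 13 for *Lcp2*; for *Zap70* 6 lay above and 8 below. Its median was 131 CPM in Tregs and 137 CPM in Tconv, while its mean, 164 against 125 CPM, has the direction of the fold change, with 3 Treg libraries above all Tconv libraries. *Foxp3* and *Il2ra*, the label checks, had log2 fold changes of 5.91 (SE 0.44, adjusted p = 7.88e-11) and 3.95 (SE 0.27, adjusted p = 1.62e-11), each with 14 of 14 Treg libraries above the Tconv libraries. *Cd3e* was called higher in Tregs with DESeq2's size factors in edgeR and with DESeq2 (both 0.33), and *Lat* was not called without the Treg library 62_66 (C57Bl/6J, SD), with a log2 fold change of −0.26. In a wider list of 53 genes of T-cell receptor signalling, given by their log2 fold change with SE where edgeR called them, 8 were higher and 6 lower in rest brain Tregs, beside 3.7% higher and 12% lower of all genes. Among those higher were *Map4k1*, a kinase that restrains receptor signals (1.32, SE 0.38), the exchange factor *Vav1* (1.12, SE 0.26) and the actin regulator *Coro1a* (1.09, SE 0.19). Among those lower were *Themis*, a T-cell adaptor (−3.60, SE 0.71), *Tespa1* (−1.23, SE 0.39) and the phosphatase *Ptpn22* (−0.93, SE 0.25).

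Each strain was also fitted alone; whether the strains differ in this comparison was not tested. In Balb/c mice alone, 6 of the 9 genes were called: *Cd3d* (−1.0), *Cd3g* (−0.99) and *Lat* (−0.42) lower in Tregs, and *Lck* (1.11), *Zap70* (1.17) and *Lcp2* (0.63) higher, where 927 genes were higher and 1477 lower of 12961 tested. In C57Bl/6J mice alone *Cd4* was called lower (−1.26), while *Cd3g* had a log2 fold change of −0.15 and was not called, where 115 genes were higher and 293 lower of 11470. Rest brain Tconv of Balb/c mice on the HFHS diet stood apart from the other Tconv libraries, as described with the strains. Without these 3 libraries 2 genes were called, *Cd4* (−1.0) and *Lat* (−0.35), and *Cd3g* had a log2 fold change of −0.35 and was not called. With an offset for transcript length, chosen after seeing the data, *Lat* had a log2 fold change of 0.00 (0.00347) and *Cd3g* of −0.08, neither called, and 4 genes were called higher in Tregs. That offset moved the median over all genes from −0.35 to 0.01; centred so that it does not do so, it left *Cd3g* (−0.46), *Lat* (−0.39) and *Cd3d* (−0.39) lower.

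In the hypothalamus, Tregs carried the receptor genes in most libraries, with a wide spread, and edgeR called 0 of the 9 genes. *Cd3e* was at 37.9, 1808 and 2791 CPM in the lowest, median and highest of 16 Treg libraries and at 1802, 2403 and 2740 CPM in 16 Tconv libraries. *Lck* was at 0.687, 1128 and 1858 CPM in Tregs and at 1524, 1789 and 2299 CPM in Tconv, and *Zap70* at 0, 73.0 and 293 CPM against 88.5, 178 and 277 CPM. Tregs lay below the Tconv median in 15 of 16 libraries for *Cd3e*, 13 for *Lck*, 14 for *Zap70* and 13 for *Lat*, though the groups overlapped for each gene. *Lat* was at 0.58, 527 and 1119 CPM in Tregs and at 684, 958 and 1109 CPM in Tconv, and *Lcp2* at 0.0858, 541 and 1412 CPM against 622, 728 and 936 CPM. *Cd3d* had nearly the same median in both, 947 CPM in Tregs and 944 CPM in Tconv, but reached from 27.2 to 2575 CPM in Tregs and from 592 to 1174 CPM in Tconv. *Cd3g* spanned 60.0 to 4287 CPM, *Cd247* 0 to 563 CPM and *Cd4* 3.48 to 521 CPM in Tregs, against 1513 to 2792, 252 to 393 and 143 to 805 CPM in Tconv. These ranges include the libraries named above, among them the C57Bl/6J library 06_10 on the HFHS diet, which had 2575 CPM of *Cd3d* but 0.687 CPM of *Lck*, 0.773 CPM of *Zap70* and 0.0858 CPM of *Lcp2*. In library 43_47, with a total of 1724149 counts, *Cd3d* was at 1789 CPM and *Lck* at 937 CPM, while *Cd247* was at 0 and *Lat* at 0.58 CPM, against a floor of 1.74 CPM for 3 counts.

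For the hypothalamus, the log2 fold changes of Tregs over Tconv ran from −1.15 for *Zap70* (SE 0.81, adjusted p = 0.474) to 0.12 for *Cd3d* (SE 0.29, adjusted p = 0.912), with *Cd3e* at −0.53 (SE 0.25, adjusted p = 0.2), *Lat* at −0.87 (SE 0.41, adjusted p = 0.185) and *Lck* at −0.79 (SE 0.41, adjusted p = 0.256). edgeR called 0 of the 9 genes, against 13.9% of the 11283 genes tested, with 2534 genes at an unadjusted p under 0.05; DESeq2 also called 0 of the 9 and limma-voom 5, all lower in Tregs, where limma-voom called 7468 of all genes, with a median of −3.63. Those 5 were *Cd3e* (−0.51), *Lat* (−1.08), *Lck* (−1.15), *Lcp2* (−1.54) and *Zap70* (−3.37). The median was −0.53 over the 9 genes against −0.96 over all genes, so that relative to all genes 8 of the 9 lay on the higher side and *Zap70* on the lower. Without the 4 Treg libraries low in *Foxp3*, 1 gene was called, *Lat* (−0.60, SE 0.18), and without the libraries with more than 100 CPM of *P2ry12*, 0 were called. The medians were then −0.31 and −0.24 over the 9 genes, in that order, against −1.05 and −1.23 over all genes. With the length offset, which moved the median over all genes to 0.59, 6 genes were called higher in Tregs, and with its centred form 3 were called lower, *Cd3e* (−0.82), *Cd3g* (−0.89) and *Lat* (−1.33). *Foxp3* had a log2 fold change of 5.53 (SE 1.01, adjusted p = 0.000222, 12 of 16 Treg libraries above the Tconv libraries) and *Il2ra* of 3.23 (SE 1.33, adjusted p = 0.115, 11 of 16). Of the 53 wider pathway genes 0 were higher and 2 lower, where 62 genes were higher and 1501 lower of all, namely *Themis* (−3.97, SE 1.36) and the membrane adaptor *Pag1*, which recruits the Lck inhibitor Csk (−5.52, SE 1.53). The monocyte and macrophage list, at 283 to 1237 CPM in Tconv and 0.026 to 2233 CPM in Tregs, had its lower median in Tregs. In these Tconv 2 of its 9 genes exceeded 3 counts in any library, with *Ly6c2* most abundant, and *Adgre1*, *Cd14* and *S100a9* were at 0. Whether its sum reflects such cells, and its part in these differences, was not tested.

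Whether the difference between Tregs and Tconv itself differs between the tissues was tested over all 59 libraries. edgeR called 0 of the 9 genes, against 9.48% of the 14764 genes tested, of which 2969 had an unadjusted p under 0.05; DESeq2 called 0 and limma-voom 4 of the 9, where limma-voom called 5906 of all genes, with a median of −1.52. *Lck* had a difference in log2 fold change (hypothalamus minus rest brain) of −1.03 (SE 0.49, adjusted p = 0.223), *Zap70* of −1.38 (SE 0.89, adjusted p = 0.44) and *Cd3d* of 0.69 (SE 0.38, adjusted p = 0.31). The median was −0.32 over the 9 genes and −0.17 over all genes; DESeq2's size factors moved these medians to −0.62 and −0.36. limma-voom called *Cd3e* (−0.58), *Lck* (−1.36), *Lcp2* (−1.37) and *Zap70* (−2.91). Without the libraries with more than 100 CPM of *P2ry12* and without those low in *Foxp3*, 0 of the 9 were called. The medians were then −0.22 and −0.095 over the 9 genes, against −0.51 and −0.26 over all genes. The median of the 9 genes thus lay above that of all genes, where it lay below it in the main fit. Of the wider list, *Coro1a* was called (−1.16, SE 0.35).

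Between the tissues, the kinases and the adaptor *Lcp2* were called higher in Tconv of the hypothalamus than in those of the rest brain, and the CD3 delta and gamma chains lower, in a fit of both strains; C57Bl/6J mice alone gave 0 of these calls, and each of the 5 genes was called in the test of strain by tissue described below. *Lck* was at 1524, 1789 and 2299 CPM in the lowest, median and highest of 16 hypothalamic libraries and at 408, 1323 and 1715 CPM in 13 rest brain libraries. *Zap70* was at 88.5, 178 and 277 CPM against 27.5, 137 and 246 CPM, and *Lcp2* at 622, 728 and 936 CPM against 256, 557 and 844 CPM. The ranges overlapped for each of these 3 genes, though 16 of 16 hypothalamic libraries lay above the rest brain median for *Lck* and *Lcp2* and 15 of 16 for *Zap70*. *Cd3d* was at 592, 944 and 1174 CPM in the hypothalamus and at 813, 1160 and 1520 CPM in the rest brain, and *Cd3g* at 1513, 2330 and 2792 CPM against 1829, 2746 and 3694 CPM. Here 14 of 16 hypothalamic libraries lay below the rest brain median for *Cd3d* and 15 of 16 for *Cd3g*. The log2 fold changes (hypothalamus over rest brain) were 0.69 for *Lck* (SE 0.14, adjusted p = 0.000711), 0.71 for *Zap70* (SE 0.19, adjusted p = 0.00941) and 0.47 for *Lcp2* (SE 0.11, adjusted p = 0.00291). They were −0.47 for *Cd3d* (SE 0.14, adjusted p = 0.0164) and −0.36 for *Cd3g* (SE 0.11, adjusted p = 0.0198). *Cd3e* (0.24, adjusted p = 0.0749, 15 of 16 above the rest brain median), *Cd247* (−0.04), *Cd4* (−0.01) and *Lat* (0.05) were not called. Of the 9 genes 3 were higher and 2 lower, against 5.6% higher and 11.8% lower (17.4% together) of the 12833 genes tested; the medians were 0.05 over the 9 and −0.11 over all genes.

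Each strain was fitted alone here too: in C57Bl/6J mice alone 0 of the 9 genes were called and 1 gene in all, with *Lck* at 0.15, *Zap70* at 0.04, *Lcp2* at 0.08, *Cd3g* at −0.05 and *Cd3d* at 0.02 (0.0159), and in Balb/c mice alone 6 were called, where 1226 genes were higher and 1788 lower of 11813 tested. Without the 3 rest brain Tconv libraries of Balb/c mice on the HFHS diet, *Lck* was still called (0.40). Then *Zap70* (0.40), *Lcp2* (0.30), *Cd3d* (−0.27) and *Cd3g* (−0.20) were not, and with the length offset *Cd3g* (−0.13) was not. Of the 53 genes of the wider list 12 were higher in the hypothalamus and 4 lower, beside 5.6% higher and 11.8% lower of all genes. They included *Map4k1* (1.46, SE 0.27), *Vav1* (1.15, SE 0.19) and the inhibitory coreceptor *Cd6* (1.01, SE 0.27) on the higher side. The lower side had the adaptors *Nck2* (−0.89, SE 0.25), *Sh2d1a* (−0.67, SE 0.17) and *Trat1* (−0.51, SE 0.15). In Tregs, edgeR called 0 of the 9 genes between the tissues, against 5.6% of the 12602 genes tested, with 2137 genes at an unadjusted p under 0.05, and DESeq2 and limma-voom also called 0. The Treg log2 fold changes ran from −0.92 for *Zap70* (SE 0.91) to 0.06 for *Cd3d* (SE 0.31), with a median of −0.32 against −0.88 over all genes, or −0.13 against −1.22 without the *P2ry12* libraries and −0.06 against −1.04 without those low in *Foxp3*, with 0 of the 9 called in either. *Zap70* lay below the lowest rest brain Treg library in 11 of 16 hypothalamic Treg libraries and *Lat* in 8 of 16, while *Cd3g* had medians of 2040 CPM in the hypothalamus and 2060 CPM in the rest brain. Of the wider list *Pag1* was called lower in hypothalamic Tregs (−6.16, SE 1.86).

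Of the main comparisons, that of the strains in Tconv of the rest brain gave the most calls among the 9 genes (6), where 23.5% of all genes were called. There the Balb/c libraries held more RNA of the CD3 gamma and delta chains and less of *Cd4*, *Lck*, *Zap70* and *Lcp2* than the C57Bl/6J libraries. Within the Balb/c group, the 3 libraries on the HFHS diet (15_21, 16_20 and 47_25) stood apart from the 3 on SD (32_36, 37_41 and 42_46). *Cd3e* was at 1230, 1187 and 982 CPM in the former and at 1967, 2175 and 2119 CPM in the latter, and *Cd3g* at 3451, 3694 and 3623 CPM against 2932, 2885 and 2840 CPM. *Lck* was at 555, 408 and 426 CPM against 808, 1012 and 974 CPM, and *Lcp2* at 361, 314 and 256 CPM against 411, 415 and 408 CPM. The diets did not overlap within Balb/c mice for these 4 genes, but in a fit of these 6 libraries edgeR called 0 of the 9 genes for diet and 0 of 11003 in all (1373 at an unadjusted p under 0.05, smallest adjusted p 0.0599). The share of all genes without overlap between these diets was not computed. For both diets together, *Lck* was at 408, 682 and 1012 CPM in the lowest, median and highest of 6 Balb/c libraries and at 1323, 1523 and 1715 CPM in 7 C57Bl/6J libraries. *Zap70* was at 27.5, 53.9 and 94.1 CPM against 137, 187 and 246 CPM, and *Lcp2* at 256, 384 and 415 CPM against 557, 764 and 844 CPM. *Cd4* was at 84.9, 151 and 262 CPM against 325, 370 and 514 CPM. For these 4 genes, 6 of 6 Balb/c libraries lay below the lowest C57Bl/6J library. *Cd3g* was at 2840, 3192 and 3694 CPM in Balb/c and 1829, 2464 and 2746 CPM in C57Bl/6J libraries, again without overlap, and *Cd3d* at 1074, 1373 and 1520 CPM against 813, 1051 and 1254 CPM, with overlap. What share of all genes had no overlap between the strains was not computed, so that these separations are not a result particular to the 9 genes.

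The log2 fold changes (Balb/c over C57Bl/6J) in rest brain Tconv were −0.92 for *Lck* (SE 0.14, adjusted p = 0.000178), −1.46 for *Zap70* (SE 0.20, adjusted p = 5.73e-05), −0.73 for *Lcp2* (SE 0.12, adjusted p = 0.000307) and −1.02 for *Cd4* (SE 0.18, adjusted p = 0.000396). They were 0.71 for *Cd3g* (SE 0.16, adjusted p = 0.00284) and 0.58 for *Cd3d* (SE 0.16, adjusted p = 0.0133), with 6 of 6 Balb/c libraries above the C57Bl/6J median for *Cd3d*. *Cd247* was at 176 to 336 CPM in Balb/c and 361 to 475 CPM in C57Bl/6J libraries, without overlap, and was not called (−0.28, adjusted p = 0.151). *Cd3e*, at 982 to 2175 CPM against 1936 to 2355 CPM (−0.22, adjusted p = 0.184), and *Lat*, at 646 to 864 CPM against 800 to 925 CPM (0.11, adjusted p = 0.541), were not called either. For *Cd247*, *Cd3e* and *Lat* 6 of 6 Balb/c libraries lay below the C57Bl/6J median in CPM; the fold change of *Lat*, on the TMM scale of the test, has the other sign. Thus 2 of the 9 genes were higher and 4 lower, against 12.2% higher and 11.3% lower (23.5% together) of the 12287 genes tested, with medians of −0.28 over the 9 and −0.03 over all genes. Without the 3 libraries of Balb/c mice on the HFHS diet, *Cd4* (−0.63), *Lck* (−0.61), *Zap70* (−1.19) and *Lcp2* (−0.68) were still called. *Cd3d* (0.19) and *Cd3g* (0.28) then were not, and 831 genes were called in place of 2887. Without the library 42_46 with *P2ry12*, the 6 calls stood.

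Other values moved with the strain in rest brain Tconv. The shared T-cell list summed to 2373 to 2672 CPM in Balb/c and 3019 to 3606 CPM in C57Bl/6J libraries, and the monocyte and macrophage list, with 6 of 9 genes above 3 counts in any rest brain Tconv library and *S100a8* at 0, to 418 to 636 CPM against 930 to 1583 CPM, both without overlap. The CD8 T and NK list, with 6 of 6 genes above 3 counts, summed to 311 to 598 CPM in Balb/c and 25.3 to 782 CPM in C57Bl/6J libraries. *Cd8a* itself, although the paper's flow cytometry leaves out cells with CD8a, was at 114 to 204 CPM in the Balb/c libraries. Among the C57Bl/6J libraries it was at 349 CPM in 01_05 (SD) and at 0 to 23.1 CPM in the others. Transcript length moved with it as well: over all genes, the median log2 fold change was 0.92 for transcripts under 1000 bases, 0.31 from 1000 to under 1500, −0.18 from there to under 2000, −0.43 to under 3000, −0.28 to under 5000 and 0.24 from 5000 bases upward. These medians include the 3 Balb/c libraries on the HFHS diet, which stood apart. The labels do not say whether those libraries were prepared or sequenced in another batch, and this was not tested. The genes that were higher in Balb/c mice have short transcripts, *Cd3g* of 1023 and *Cd3d* of 1330 bases, and those that were lower have long ones, *Lck* of 2118, *Zap70* of 2124, *Cd4* of 3095 and *Lcp2* of 3348 bases. *Cd3e* (1436 bases) and *Cd247* (1679 bases), with lengths between these, were not called, and neither was *Lat*, which at 1234 bases is shorter than *Cd3d*. With the centred length offset, *Lck* (−0.66), *Zap70* (−1.19), *Cd4* (−0.70) and *Lcp2* (−0.45) were still called lower, *Cd3e* was called lower as well (−0.36), and *Cd3d* (0.34) and *Cd3g* (0.19) were not called. The length offset without centring gave 1 gene higher and 5 lower, and *Cd3g* (0.25) was not called. The part of cell composition in these differences was not tested.

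**Figure D2:**
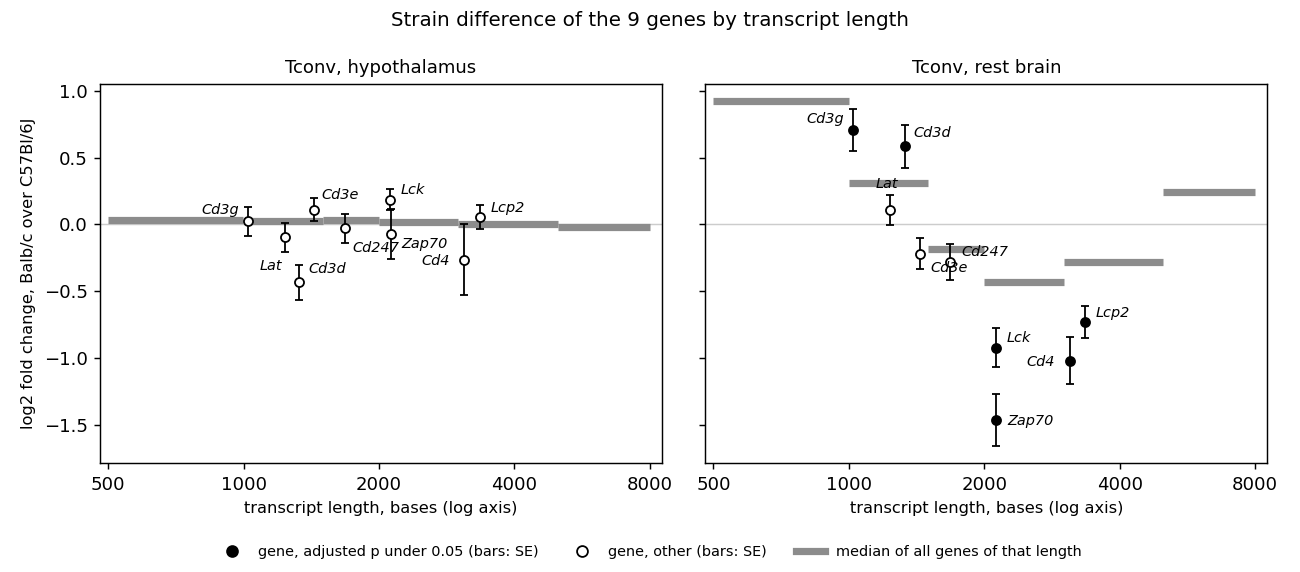
Log2 fold change of Balb/c over C57Bl/6J in Tconv (vertical axis, bars SE) against transcript length in bases (horizontal log axis) for the 9 genes, filled where the adjusted p was under 0.05; grey lines are medians of all genes of that length. In the rest brain *Cd3g* (0.71) and *Cd3d* (0.58) lie above 0 and *Zap70* (−1.46) lowest, while in the hypothalamus the 9 genes lie between −0.43 and 0.19.

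The strain contrast of these genes differed between the tissues. In hypothalamic Tconv edgeR called 0 of the 9 genes, against 2.1% of the 10875 genes tested, with 1076 genes at an unadjusted p under 0.05, while DESeq2 and limma-voom each called *Cd3d*. *Cd3d* was at 684, 773 and 974 CPM in the lowest, median and highest of 8 Balb/c libraries and at 592, 1117 and 1174 CPM in 8 C57Bl/6J libraries, with 8 of 8 below the C57Bl/6J median (−0.43, SE 0.13, adjusted p = 0.128). The low C57Bl/6J value belongs to the library 11_15 on SD, which also had the highest *Cd4* of these libraries at 805 CPM; without it *Cd3d* was called. *Lck*, at 1524, 1910 and 2299 CPM in Balb/c and 1542, 1678 and 1849 CPM in C57Bl/6J libraries, had a log2 fold change of 0.19 (SE 0.08, adjusted p = 0.396, 7 of 8 above the C57Bl/6J median). A test of strain by tissue over the 29 Tconv libraries, added after seeing the data, called 5 of the 9 genes: 2 with a higher and 3 with a lower Balb/c contrast in the rest brain, against 5.58% and 4.83% (10.4% together) of the 12833 genes tested. The difference (rest brain minus hypothalamus) was 0.97 for *Cd3d* (SE 0.21, adjusted p = 0.00259) and 0.65 for *Cd3g* (SE 0.18, adjusted p = 0.0204). It was −1.13 for *Lck* (SE 0.16, adjusted p = 9.68e-05), −1.42 for *Zap70* (SE 0.27, adjusted p = 0.00124) and −0.82 for *Lcp2* (SE 0.14, adjusted p = 0.000614). *Cd4* had −0.79 (SE 0.34, adjusted p = 0.145). Without the 3 libraries of Balb/c mice on the HFHS diet, *Lck* (−0.79) and *Lcp2* (−0.75) were called, and *Zap70* (−1.12), *Cd3d* (0.80) and *Cd3g* (0.42) were not. *Cd3g* was not called either with the length offset (0.27) or its centred form (0.17).

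Of the 53 wider pathway genes, 2 were higher and 25 lower in rest brain Tconv of Balb/c mice, beside 12.2% higher and 11.3% lower of all genes; whether the list differs from all genes was not tested. Kinases and phosphatases had 1 higher and 9 lower of 10, adaptors and scaffolds 1 and 4 of 14, negative regulators 0 and 9 of 14, and downstream genes 0 and 3 of 15. The phosphatase *Ptpn2* (0.77, SE 0.16) and *Tespa1* (0.71, SE 0.18) were higher. The adaptor *Dok1* (−3.16, SE 0.95), the phospholipase *Plcg1*, which Lat recruits (−2.38, SE 0.46), and *Map4k1* (−2.23, SE 0.34) were lowest. The strain by tissue test called 1 of the 53 higher, *Ptpn2* (0.85, SE 0.27), and 15 lower, led by *Cd6* (−2.07, SE 0.34), *Map4k1* (−2.02, SE 0.36) and *Ubash3a*, a negative regulator (−1.57, SE 0.27), beside 5.58% and 4.83% of all genes. In hypothalamic Tconv 3 were higher in Balb/c mice and 0 lower, where 108 genes were higher and 120 lower of all: the adaptor *Dok2* (0.95, SE 0.09), the phosphatase *Ptpn6* (0.55, SE 0.12) and the inhibitory receptor *Cd5* (0.54, SE 0.14). In Tregs the strains gave no called gene among the 9. edgeR called 0 of 9 in hypothalamic Tregs, against 0.0389% of 7715 genes tested (292 at an unadjusted p under 0.05), and DESeq2 and limma-voom 0. In rest brain Tregs it called 0 of 9, against 0.299% of 11711 genes tested (1045 at an unadjusted p under 0.05), limma-voom 0 and DESeq2 *Cd3d*. *Cd3d* was there at 678, 811 and 985 CPM in 6 Balb/c and 976, 1120 and 1415 CPM in 8 C57Bl/6J libraries, with 5 of 6 below all C57Bl/6J libraries (−0.51, SE 0.13, adjusted p = 0.17). Of the wider list 0 genes were called between the strains in either set of Tregs. In hypothalamic Tregs the median log2 fold change over all genes was −0.28, which DESeq2's size factors moved to −0.16, and over the 9 genes 0.23. Without the *P2ry12* libraries these medians were 0.06 and 0.05 and without those low in *Foxp3* −0.20 and −0.13, with 0 of the 9 called.

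Deposited values per transcript allow a look at which transcripts of *Zap70* and *Lck* these levels came from. The shares are of Salmon's estimated counts in libraries with at least 100 counts of the gene, and since reads that transcripts share are divided by estimation, they were not tested. *Zap70* had 4 transcripts, of which the one of 2247 bases took a median of 89.6% and one of 1343 bases 9.14%. The median share of the 1343-base transcript was 9.56% in hypothalamic Tconv, 11% in rest brain Tconv, 10.7% in hypothalamic Tregs and 7.79% in rest brain Tregs. It reached 58.8% in the rest brain Treg library 11_15 (C57Bl/6J, SD). In rest brain Tconv of Balb/c mice it ran from 6.77% to 93.3% with a median of 56.0%, against 4.03% to 11.7% with a median of 5.96% in C57Bl/6J mice. The 3 Balb/c libraries on the HFHS diet, from 70.0% to 93.3%, held the high values, while the 3 on SD ran from 6.77% to 42.1% and overlapped with C57Bl/6J mice on SD (4.03% to 11.7%). Over all genes, too, the median log2 fold change was above 0 for transcripts under 1500 bases in rest brain Tconv of Balb/c mice, as described with the strains, and the part of transcript length in these shares was not tested. Hypothalamic Tregs gave no usable comparison here, since 10 of 16 libraries reached 100 counts and their shares ran from 0% to 100%. *Lck* has transcripts from a distal and a proximal promoter; the distal one took a median of 97.5% of its counts. The proximal share had a median of 5.21% (1.88% to 11.2%) in hypothalamic Tconv and 4.47% (0.24% to 9.99%) in rest brain Tconv, against 0.351% in hypothalamic and 0.459% in rest brain Tregs. The sets overlapped, since Tregs reached 13.5% in the rest brain and, in the hypothalamic library 42_46 (Balb/c, SD) with 305 CPM of *Lck*, 98.6%. In hypothalamic Tconv the proximal share was 1.88% to 6.32% in Balb/c and 5.19% to 11.2% in C57Bl/6J mice.

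**Figure D3:**
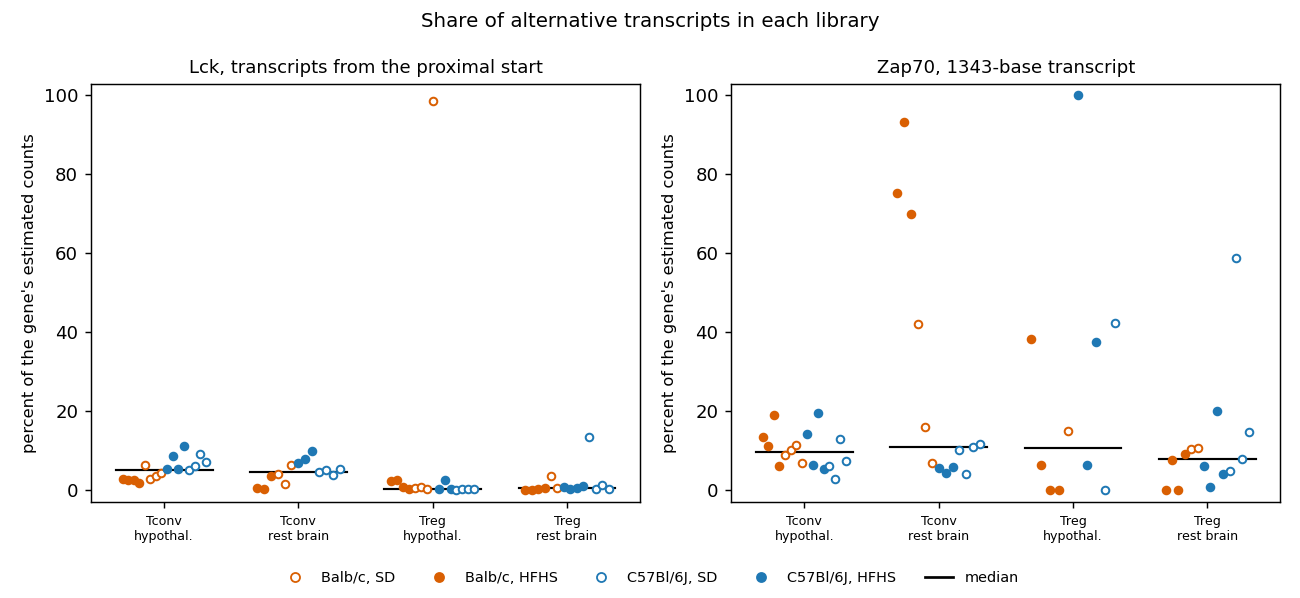
Share, in percent of the gene's estimated counts, of the proximal-promoter transcripts of *Lck* and of the 1343-base transcript of *Zap70* (vertical axes) in each set; each point is a library with at least 100 counts of the gene. Rest brain Tconv of Balb/c mice reach 93.3% for *Zap70*, against at most 11.7% in rest brain Tconv of C57Bl/6J mice. C57Bl/6J libraries of other sets go higher, to 58.8% in rest brain Tregs and 100% in hypothalamic Tregs.

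In the second experiment, the HFHS diet, the question of the study, gave no called change in any of the 9 genes. edgeR called 0 genes in each of the 4 sets, that is 0% of 10875 genes in hypothalamic Tconv, 0% of 12287 in rest brain Tconv, 0% of 7715 in hypothalamic Tregs and 0% of 11711 in rest brain Tregs. At an unadjusted p under 0.05 there were 406, 591, 213 and 853 genes; DESeq2 called 16, 12, 182 and 322 genes and limma-voom 0, 1, 4 and 16, of which 0 were among the 9 genes, and edgeR called 0 of the wider list. *Cd4* in hypothalamic Tregs had the largest difference: 56.1, 306 and 521 CPM in the lowest, median and highest of 8 HFHS libraries and 3.48, 49.7 and 253 CPM in 8 SD libraries. Of the HFHS libraries 7 of 8 lay above the highest SD library, yet the log2 fold change of 1.86 had an SE of 1.1 and an adjusted p of 1. The SD group holds 3 of the 4 libraries low in *Foxp3*; without those 4 the log2 fold change of *Cd4* was 1.37 (SE 1.02), and without the *P2ry12* libraries 1.52 (SE 1.26), neither called. *Il2ra* had a log2 fold change of 3.65 (SE 1.99, adjusted p = 1), with 8 of 8 HFHS libraries above the SD median of 9.22 CPM; the 5 libraries low in *Il2ra* are all in the SD group. The median over all genes in that set was 0.19, which DESeq2's size factors moved to 0.03, and over the 9 genes 0.55 and 0.36. Without the *P2ry12* libraries the medians were 0.40 and 0.12, and without those low in *Foxp3* 0.34 and −0.16, over all genes and the 9 genes, with 0 of the 9 called in either. In rest brain Tregs *Cd247* was at 326, 365 and 505 CPM on the HFHS diet and 126, 282 and 347 CPM on SD, with 8 of 8 above the SD median (0.51, SE 0.24, adjusted p = 0.658). *Lck* was there at 1322, 1670 and 2003 CPM against 912, 1209 and 1744 CPM, again with 8 of 8 above the SD median (0.33, SE 0.13, adjusted p = 0.496). *Cd4* had 8 of 8 above as well (0.28, SE 0.34), whereas *Cd3d*, at 777, 981 and 1127 CPM against 678, 1138 and 1415 CPM, had 8 of 8 below the SD median (−0.06, SE 0.13), each with an adjusted p of 1. In rest brain Tconv *Cd3e* was at 982, 1583 and 2243 CPM on the HFHS diet and 1967, 2226 and 2355 CPM on SD, with 5 of 6 below the SD median (−0.41, SE 0.11, adjusted p = 0.899), and *Lck* at 408, 976 and 1715 CPM against 808, 1323 and 1705 CPM (−0.38, SE 0.14, adjusted p = 0.923, 3 of 6 below the SD median), while *Cd3d* (0.04, SE 0.16) and *Cd3g* (0.10, SE 0.16) had positive log2 fold changes. The low values of *Cd3e* and *Lck* are those of the 3 Balb/c libraries; whether diet acts differently in the strains was not tested. In hypothalamic Tconv the 9 log2 fold changes lay between −0.44 for *Cd4* (SE 0.26) and 0.16 for *Cd3d* (SE 0.13), each with an adjusted p of 1. There, *Lcp2* was below the SD median in 7 of 8 HFHS libraries (622, 686 and 890 CPM against 722, 824 and 936 CPM; −0.18, SE 0.09), and *Cd3g* was above it in 7 of 8 (0.14, SE 0.11) and *Cd3d* in 5 of 8.

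The pilot experiment has 1 library for each condition, so that its folds carry counting error only and no test. Counts on genes ran from 99925 to 5334511, which were 0.391% to 17.1% of the reads in each file, and PCR copies are not independent molecules. A gene was called with more than 20 normalized reads in at least 1 library and a fold above 2 or below 0.5. In naive T cells on the HFHS diet, the chains of the complex stood above SD and *Lat* below. *Cd3d*, with 15031 counts against 4750 for SD, was 5.39-fold higher (95% interval 5.22 to 5.57 by Clopper-Pearson). *Cd3g* was 4.06-fold, *Cd247* 2.72-fold and *Cd3e* 2.22-fold higher, and *Lat* was 0.365-fold (0.318 to 0.416). *Cd4* (0.748), *Lck* (1.25), *Zap70* (1.16) and *Lcp2* (1.37) were not called. These are 4 genes higher and 1 lower of 9, against 24.8% and 37% of the 6686 genes compared, with median log2 folds of 0.45 for the 9 and −0.24 for all. With CPM in place of size factors 3 were higher and 1 lower. *Foxp3* was at 72.7 CPM in the naive library on SD, close to the 75.3 CPM of the Treg library on SD, and at 1.38 CPM in the naive library on the HFHS diet. The naive library on SD, which is the denominator of the folds above, thus goes against its label on this marker, while its *Il2ra*, at 19.0 CPM, was below the 735 CPM of that Treg library. In Foxp3GFP+ Tregs *Cd247* (3.04-fold, 2.70 to 3.43) and *Lcp2* (2.70-fold, 2.29 to 3.20) were higher on the HFHS diet and *Lat* was lower (0.403-fold, 0.326 to 0.496). That is 2 higher and 1 lower of 9, against 48.2% and 32.3% of 5445 genes, with medians of 0.37 and 0.78; with CPM 1 was higher and 1 lower, with medians of −0.09 and 0.32. *Foxp3* was at 90.7 CPM in the Treg library on the HFHS diet.

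Between *ob/ob* and WT mice, 5 of the 9 genes in CD4+ T cells were called higher and 2 lower. Whether this differs from the share of all genes was not tested. *Cd247* was 9.45-fold (5.11 to 19.8), *Cd3g* 2.52-fold and *Lck* 2.37-fold higher, on 10, 200 and 153 counts in the WT library. *Zap70* (91 counts) was at least 3.10-fold and *Lcp2* (813 counts) at least 28.2-fold higher by the lower 95% limit, since the WT library with its 220336 counts had 0 of either, against a floor of 3 counts or 13.6 CPM. *Cd3d* was 0.452-fold and *Lat* 0.418-fold. These are 5 higher and 2 lower of 9, against 57.3% and 28.5% of 6440 genes, with medians of 1.25 and 1.31; with size factors over the 2 libraries alone, 7 were higher and 0 lower, so that the lower calls of *Cd3d* and *Lat* depend on the scaling. Where each of the 2 libraries had to exceed 20 normalized reads, 3 of 7 were higher and 2 lower, and 316 genes were higher and 730 lower of 1644. *Foxp3* was at 300 CPM (66 counts) in WT CD4+ T cells and 27.8 CPM in those of *ob/ob* mice. The WT library, the denominator of these folds, thus had more *Foxp3* than the Foxp3GFP+ Treg libraries, with 0 counts of *Il2ra*. Its label, CD4+, does not exclude Tregs, but the paper describes these cells as sorted CD4+CD25-, a gate that leaves out CD25+ Tregs. The part of Tregs in these folds was not tested. The WT library labelled CD25 hi Tregs held little T-cell RNA: *Cd3d*, *Cd247*, *Cd4*, *Lck* and *Zap70* had 0 counts of 5334511, which allow up to 0.562 CPM each, and the 9 genes summed to 253 CPM. It had 18729 CPM of *P2ry12*, 2.44 CPM of *Foxp3* and 0 counts of *Il2ra*, and so goes against its label. The *ob/ob* library of that label had 99925 counts, with 239 of *Cd3g*, 197 of *Lck*, 82 of *Cd3d*, 27 of *Foxp3* (270 CPM) and 0 of *Lcp2* and *Il2ra* (up to 30.0 CPM each). With *Il2ra* at 539 and 735 CPM in the Foxp3GFP+ Tregs, this library goes against the CD25 hi gate on that marker too. Between them 7 of 8 genes compared were higher and 1 lower, against 24.8% and 54.8% of 5978 genes, but with CPM 2488 of all genes were higher and 1634 lower, so that the balance over all genes depends on the scaling. Of the 8 genes, 3 had more than 20 normalized reads in both libraries: *Cd3e* (7.07-fold), *Cd3g* (10.1-fold) and *Lat* (13.5-fold). These folds depend on the scaling as well, since the CPM, 430 against 17.8, 2392 against 69.5 and 570 against 12.4, differ over 3 times more. *Zap70*, with 1 and 0 counts, was not compared, and *Lcp2* was at most 0.0704-fold by the upper 95% limit, with 820 counts in the WT library. The other 4 folds are lower bounds only, so that no median over the 8 genes is given. The astrocyte list summed to 3083 CPM in the WT and 2442 CPM in the *ob/ob* library of this label.

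The 9 genes did not move as a block across libraries. Over the 59 libraries of the second experiment, the rank correlation (Spearman) of CPM between pairs of the 9 genes ran from −0.392 for *Cd3d* and *Lck* to 0.593 for *Lck* and *Lcp2*, with 0.569 for *Cd3e* and *Lck*, 0.57 for *Lck* and *Zap70* and 0.364 for *Cd3d* and *Cd3g*. Among 8404 other genes with a mean of at least 10 CPM, the 5 most like the mean of the 9 genes were *B4galnt1* (0.799), *Itgb2* (0.772), *Adgre5* (0.768), *Cxcr3* (0.753) and *Rassf5* (0.748). *Itgb2* encodes an integrin chain of leukocytes and *Cxcr3* a chemokine receptor of activated T cells. These coefficients describe 59 libraries that share tissues, strains and depth, and carry no p.

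In position, the 3 CD3 genes share a stretch of 40092 bases on chromosome 9 (GRCm38.p6): *Cd3g* at chr9:44969572-44980431 on the minus strand, *Cd3d* at chr9:44981769-44987052 on the plus strand and *Cd3e* at chr9:44998735-45009663 on the minus strand. *Cd3g* and *Cd3d* start 1337 bases apart and point away from each other, and *Cd3e* ends 11682 bases beyond *Cd3d*. The other genes lie on chromosomes 1 (*Cd247*, chr1:165779952-165871153 and *Zap70*, chr1:36761798-36782821), 4 (*Lck*, chr4:129548344-129573641), 6 (*Cd4*, chr6:124864693-124888247), 7 (*Lat*, chr7:126363827-126369705) and 11 (*Lcp2*, chr11:34046928-34092281). The RefSeq table of promoters, which covers bases on both sides of a start, held 11 entries for 8 of the 9 genes. The letters AGGAAG or their reverse CTTCCT were found in 9 of the 11 entries, against 35.4% of 32851 promoters of that length. These letters hold GGAA, the core that ETS factors bind, and matches of GGAA alone were not counted. TATAAA or its reverse TTTATA was found in 0 of the 11, against 13.6%. Both strands were searched, and a match is a description of letters and not a site. The sequences of the CD3 genes, which are neighbours and of which *Cd3d* and *Cd3g* were both higher in rest brain Tconv of Balb/c mice, and of both *Lck* promoters, whose shares differed between libraries, follow with AGGAAG and CTTCCT in capitals. They run 5′ to 3′ on the strand of the gene, at chr9:44980382-44980681 (minus) for *Cd3g*, chr9:44981536-44981835 (plus) for *Cd3d*, chr9:45009562-45009861 (minus) for *Cd3e*, and chr4:129573592-129573891 and chr4:129558323-129558622 (both minus) for the distal and the proximal *Lck* promoter. *Cd3g* has 0 matches of AGGAAG or CTTCCT, though it holds GGAA, *Cd3d* and *Cd3e* have 2 each, and *Lck* has 3 in the distal and 1 in the proximal promoter.
Cd3g promoter: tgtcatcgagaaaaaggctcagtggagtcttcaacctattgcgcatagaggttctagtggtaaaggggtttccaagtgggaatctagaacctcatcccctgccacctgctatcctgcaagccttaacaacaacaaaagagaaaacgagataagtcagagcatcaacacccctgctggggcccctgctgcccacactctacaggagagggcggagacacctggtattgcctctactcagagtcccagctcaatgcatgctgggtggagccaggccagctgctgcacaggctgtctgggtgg
Cd3d promoter: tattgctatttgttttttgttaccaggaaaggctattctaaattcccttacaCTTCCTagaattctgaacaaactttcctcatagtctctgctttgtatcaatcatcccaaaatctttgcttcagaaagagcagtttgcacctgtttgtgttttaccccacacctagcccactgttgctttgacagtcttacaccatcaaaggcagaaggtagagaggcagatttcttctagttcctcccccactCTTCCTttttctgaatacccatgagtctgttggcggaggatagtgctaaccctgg
Cd3e promoter: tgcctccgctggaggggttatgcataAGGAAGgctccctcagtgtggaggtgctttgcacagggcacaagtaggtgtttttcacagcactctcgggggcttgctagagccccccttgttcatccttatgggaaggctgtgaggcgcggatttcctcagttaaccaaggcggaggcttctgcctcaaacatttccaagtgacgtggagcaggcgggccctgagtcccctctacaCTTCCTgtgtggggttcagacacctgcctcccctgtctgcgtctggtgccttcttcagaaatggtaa
Lck distal promoter: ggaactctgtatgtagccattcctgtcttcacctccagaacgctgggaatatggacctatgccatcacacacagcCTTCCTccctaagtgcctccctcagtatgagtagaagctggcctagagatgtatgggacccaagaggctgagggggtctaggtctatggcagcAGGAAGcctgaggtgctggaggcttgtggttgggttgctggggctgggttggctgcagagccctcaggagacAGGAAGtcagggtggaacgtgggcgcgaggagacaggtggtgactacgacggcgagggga
Lck proximal promoter: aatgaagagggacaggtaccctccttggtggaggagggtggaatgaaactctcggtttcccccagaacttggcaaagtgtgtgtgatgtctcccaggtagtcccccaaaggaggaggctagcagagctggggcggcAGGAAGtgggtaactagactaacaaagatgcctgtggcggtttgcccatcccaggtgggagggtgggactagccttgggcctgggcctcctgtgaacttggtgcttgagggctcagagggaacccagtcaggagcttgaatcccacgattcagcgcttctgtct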

How the data were processed

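The series holds RNA-seq of sorted T cells in 67 libraries, 59 in the second experiment and 8 in the pilot experiment. For the second experiment the authors deposited, for each library, estimated counts of RefSeq transcripts from Salmon, and TPM of the same transcripts. For the pilot experiment the authors deposited counts of reads on gene symbols from HTSeq. Estimated counts were summed over the transcripts of each gene (34652 of 35034 names, 98.9%, matched a gene of GRCm38.p6, and the others were kept as features of their own) and rounded to whole counts, giving 24530 features; CPM were computed here from the library totals. Pilot files give 24421 symbols, and 0.391% to 17.1% of their reads lay on genes, with 4.30% to 67.3% on no feature; the others were not aligned, ambiguous or of low quality. Totals were 1724149 to 38482277 counts in the second and 99925 to 5334511 in the pilot experiment, so that the floor of 3 counts is a different CPM in each library. Intervals and floors cover counting error only.

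Groups follow the labels for cell type, tissue, strain and diet. Comparisons of the second experiment used the quasi-likelihood test of edgeR 4.0.16 with TMM scaling, a minimum count of 10 and adjusted p under 0.05 (Benjamini-Hochberg over all genes tested), with the strain and diet group as a further term for cell types and tissues, strain for diets and diet for strains. Alternatives were DESeq2 1.42.0, limma 3.58.1 with voom and sample quality weights, DESeq2's size factors in edgeR, a filter of more than 10 counts in total, a replicate block, each strain alone and leaving out each library. Chosen after seeing the data were the strain by tissue comparison, the transcript shares, the transcript-length offset (a lowess curve with span 0.3 for each library) and its centred form, and leaving out libraries with more than 100 CPM of *P2ry12*, Treg libraries with less than 10 CPM of *Foxp3*, or the rest brain Tconv libraries of Balb/c mice on the HFHS diet. Pilot folds used size factors over the 8 libraries, with Clopper-Pearson 95% intervals and no test. The edgeR code, with and without the length offset, was tested on simulated data, while that of DESeq2 and limma was not. Genes named are the 9 genes, *Foxp3* and *Il2ra*, the called genes of the wider pathway list with the largest changes (up to 3 in each direction), the most abundant gene of each list, and the 5 genes with the highest correlation with the mean of the 9. *P2ry12* and *Cd8a* were named after seeing the data. The 9 genes and the lists given here (Treg, shared T-cell, CD8 T and NK, B-cell, monocyte and macrophage, neuronal, astrocyte, oligodendrocyte, endothelial, erythroid, and 4 lists of the wider pathway) were chosen with earlier results of these data known. Versions were R 4.3.3, Python 3.11.15, numpy 2.4.6, pandas 2.3.3, scipy 1.17.1 and matplotlib 3.10.9.

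Limits: libraries are pools, and the labels do not say whether pools of different sets share animals. Strain and sex cannot be told apart, cell composition was not tested, and the hypothalamic Treg libraries differ widely in depth and content. No protein was measured, and receptor signalling itself was not.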

Additional observations from a re-analysis of the deposited data

Results flagged for a closer look

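Among groups of 4 libraries, 12 groups were examined for a highest or lowest library far from the others, with 120 values (each of the 9 genes and their sum). This gave 13 such values, and chance gives about 1 in 20, or 6. In hypothalamic Tconv of Balb/c mice on the HFHS diet, library 16_20 had 974 CPM of *Cd3d* (others 771 to 794) and 147 CPM of *Zap70* (others 175 to 181), and library 15_21 had 983 CPM of *Lat* (others 794 to 814). In hypothalamic Tconv of C57Bl/6J mice, library 72_76 on the HFHS diet had 1708 CPM of *Lck* (others 1542 to 1566), and library 11_15 on SD had 592 CPM of *Cd3d* (others 1087 to 1174) and 805 CPM of *Cd4* (others 229 to 310). In hypothalamic Tregs, *Cd4* was at 466 CPM in the Balb/c library 15_21 on the HFHS diet (others 292 to 317) and at 253 CPM in the C57Bl/6J library 62_66 on SD (others 3.48 to 26). In hypothalamic Tregs of Balb/c mice on SD, *Zap70* was at 293 CPM in library 06_10 (others 0 to 0.439). In the same group, library 32_36 had 97.7 CPM of *Lat* (others 945 to 1119) and a sum of 4231 CPM over the 9 genes (others 9427 to 10051). In rest brain Tregs of C57Bl/6J mice on SD, *Cd4* was at 249 CPM in library 11_15 (others 106 to 112), and the sum was 7103 CPM in library 01_05 (others 8976 to 9319).

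The strain difference of Tconv differed between rest brain and hypothalamus for 5 genes in edgeR's test of the difference itself, a comparison added after seeing the data. The difference in log2 fold change was 0.97 for *Cd3d*, 0.65 for *Cd3g*, −1.13 for *Lck*, −1.42 for *Zap70* and −0.82 for *Lcp2*. Without the Balb/c HFHS libraries *Zap70* (−1.12), *Cd3d* (0.80) and *Cd3g* (0.42) were not called, nor was *Cd3g* with either length offset (0.27 and 0.17). No explanation was tested.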

How the results depend on the processing

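Of 437 values recomputed under another setting, 342 kept their direction and their side of the threshold, or for counts stayed within 1.5 times, and of 749 recomputed without a single library, 720 did. The cause of the changes below was not tested. With limma-voom, the count of the 9 genes called was 5 for Tregs against Tconv in the hypothalamus (0 in edgeR), 4 in the rest brain (2), 4 for the difference between tissues (0) and 1 for the strains in hypothalamic Tconv (0). With DESeq2 it was 1 for the strains in hypothalamic Tconv (0) and 1 in rest brain Tregs (0). With the length offset it was 6 for Tregs against Tconv in the hypothalamus, 4 in the rest brain, 1 for the tissues in Tregs (0), 1 for the strains in hypothalamic Tconv and 2 for the difference between tissues; with its centred form it was 3 for Tregs against Tconv in the hypothalamus and 1 for the strains in hypothalamic Tconv. *Lat* in Tregs against Tconv of the rest brain reversed with the length offset (0.00347, adjusted p = 0.991). The adjusted p of *Lat* under the alternatives ran from 0.000365 to 0.991.

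With a replicate block (pool label), the count was 2 for Tregs against Tconv in the hypothalamus, 1 in the rest brain and 0 for the tissues in Tconv (5 without), where 33 genes were called in all. This fit used pools with both kinds of library, 18 of 29 libraries for the tissues in Tconv, 24 of 27 in the rest brain and 30 of 32 in the hypothalamus, so that fewer libraries and the block changed together. The log2 fold changes for the tissues in Tconv were then 0.72 for *Lck*, 0.85 for *Zap70*, 0.45 for *Lcp2*, −0.58 for *Cd3d* and −0.37 for *Cd3g*, and for *Lat* in the rest brain −0.34. Libraries with equal pool labels were compared by their deviations from their group means. Of 15, 12, 9 and 10 pairs (Tregs against Tconv in hypothalamus and rest brain, tissues in Tconv and Tregs), 0 had a correlation over 0.1, and 3, 4, 3 and 1 correlated best with their own label. This check cannot exclude that such pools share animals, since each group mean rests on few libraries that differ widely. In Balb/c mice alone it was 6 for Tregs against Tconv in the rest brain, and in C57Bl/6J mice alone 1 there and 0 for the tissues in Tconv, where *Cd3d* reversed (0.0159). Without Treg libraries low in *Foxp3* it was 1 for Tregs against Tconv in the hypothalamus. Without the rest brain Tconv libraries of Balb/c mice on the HFHS diet it was 1 for the tissues in Tconv and 2 for strain by tissue (5). In the pilot CD25 hi Tregs, 3 genes had more than 20 normalized reads in both libraries (8 called); over all genes 1481 were higher and 3276 lower, but 2488 and 1634 with CPM. In the pilot CD4+ T cells, 3690 genes were higher and 1838 lower, but 316 and 730 where each library had to exceed 20 normalized reads.

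Over all genes, counts for Tregs against Tconv moved from 1563 to 2659 (DESeq2), 7468 (limma-voom), 5638 (replicate block), 383 (C57Bl/6J alone) and 2399 (without *P2ry12* libraries) in the hypothalamus, and from 2190 to 3501 (limma-voom), 5118 (more than 10 counts), 408 (C57Bl/6J alone) and 955 (without Balb/c HFHS Tconv) in the rest brain. For the tissues in Tconv they moved from 2233 to 6964 (more than 10 counts), 1 (C57Bl/6J alone) and 548 (without Balb/c HFHS libraries), and in Tregs from 706 to 1848 (DESeq2), 4298 (limma-voom), 1358 (without *P2ry12* libraries), 0 (replicate block) and 0 (C57Bl/6J alone). For the strains they moved from 228 to 542 in hypothalamic Tconv (DESeq2), from 2887 to 831 in rest brain Tconv (without Balb/c HFHS libraries), from 3 to 250 (DESeq2), 13 (limma-voom) and 11 (more than 10 counts) in hypothalamic Tregs, and from 35 to 300 (DESeq2) and 123 (limma-voom) in rest brain Tregs. For the diets, DESeq2 gave 16, 12, 182 and 322 and limma-voom 0, 1, 4 and 16 in place of 0; in hypothalamic Tregs it was 39 with more than 10 counts and 1 without *P2ry12* libraries. For the difference between tissues it moved from 1399 to 5906 (limma-voom) and 2330 (more than 10 counts), and for strain by tissue from 1336 to 736 and 742 (length offset and centred form) and 152 (without Balb/c HFHS libraries).

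Leaving out each library in turn, the count of the 9 genes called was 0 to 0 for Tregs against Tconv in the hypothalamus, 1 to 3 in the rest brain, 5 to 6 for the tissues in Tconv, 0 to 0 in Tregs, 0 to 1 for the strains in hypothalamic Tconv, 6 to 6 in rest brain Tconv, 0 to 0 in both sets of Tregs and 0 to 0 for the diets. The 1 in the rest brain came without the Treg library 62_66 (C57Bl/6J, SD), where *Lat* was at −0.26, and the 1 in hypothalamic Tconv without library 11_15 (C57Bl/6J, SD). *Cd3g* and *Lat* ran from −0.54 to −0.43 and from −0.41 to −0.26 for Tregs against Tconv in the rest brain. For the tissues in Tconv, *Cd3d* ran from −0.53 to −0.41, *Cd3g* from −0.41 to −0.32, *Lck* from 0.62 to 0.76, *Zap70* from 0.62 to 0.80 and *Lcp2* from 0.41 to 0.52. For the strains in rest brain Tconv, *Cd3d* ran from 0.46 to 0.65, *Cd3g* from 0.59 to 0.76, *Cd4* from −1.17 to −0.90, *Lck* from −1.01 to −0.84, *Zap70* from −1.66 to −1.38 and *Lcp2* from −0.79 to −0.68. All-gene counts ran from 1523 to 2344 and 1816 to 3037 (Tregs against Tconv), 1934 to 3033 (tissues, Tconv), 176 to 259, 2462 to 2922, 1 to 3 and 26 to 41 (strains), and 0 to 10 for the diets in hypothalamic Tregs. For the tissues in Tregs they ran from 270 to 1507: 441, 425, 457 and 416 without the hypothalamic Balb/c SD libraries 06_10, 32_36, 37_41 and 42_46, 464 and 1507 without the C57Bl/6J libraries 06_10 (HFHS diet) and 11_15 (SD), and 329 and 270 without the rest brain Balb/c SD libraries 37_41 and 42_46. Single libraries were not left out of the 2 tests of a difference between tissues (Tregs against Tconv, and strain) or of the pilot experiment. On the TPM scale the median share of the 1343-base *Zap70* transcript was 16.1% in hypothalamic Tconv (9.56% of estimated counts) and 10.3% in rest brain Tconv of C57Bl/6J mice (5.96%). It was 18.2% in rest brain Tconv of both strains (11%), 17.6% in hypothalamic Tregs (10.7%) and 13.3% in rest brain Tregs (7.79%). Depth limits the hypothalamic Treg and the pilot libraries, where counts of 0 allow up to 1.74 and 30.0 CPM.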
